A study of Homo sapiens with 4 samples.

Results

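H/ACA small nucleolar RNAs (snoRNAs) and small Cajal body RNAs (scaRNAs) were measured in total RNA sequencing of 2 human prostate cancer cell lines. They were chosen by name: 105 genes whose symbols start with SNORA (H/ACA snoRNAs) and 24 whose symbols start with SCARNA (scaRNAs), 129 of the 22985 named genes in the deposited data. The series set C4-2, which was grown out of LNCaP cells in castrated mice and carries the label CRPC, against LNCaP, an androgen-responsive line of lymph node origin that carries the label Primary PC. The culture medium, the same for both, was RPMI with charcoal-stripped serum, which holds little steroid, and each line gave 2 libraries made after removal of ribosomal RNA. Each group is a single established line, and the labels do not say whether its libraries came from separate cultures. The p-values therefore measure only the spread between these libraries, which may be technical.

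The stored name of each data set contradicts its sample title, the C4-2 samples being stored as LNCaP and the LNCaP samples as C4-2. C4-2 and LNCaP mean the titles' labels throughout, and every direction would turn round if the stored names were right. Sense tags (reads counted on the transcript's own strand) of named genes numbered 163126630 and 119080520 in C4-2 libraries and 58925680 and 70459588 in LNCaP libraries. They made up 67.67% and 69.43% of the total from which the authors computed RPKM in C4-2 libraries, against 31.03% and 35.65% in LNCaP libraries, so a larger share of the LNCaP totals was not sense tags of named genes. The part of that gap in the results was not tested. Levels are given as CPM, tags per 1000000 sense tags of named genes after TMM scaling, so a fold change is relative to the typical named gene. Scaling by the authors' totals instead adds 1.0 to the median log2 fold change of all genes, and a log2 fold change between −1 and 0 then mostly turns positive. The summed CPM of 6 luminal prostate genes lay at 2209 to 2261 in C4-2 libraries and 1351 to 1382 in LNCaP libraries. KLK3 was the exception to that order, with 6.14 and 6.23 CPM in C4-2 libraries against 533 and 557 CPM in LNCaP libraries. The 3 leukocyte genes together stayed at or below 0.216 CPM in every library, and the 3 basal epithelial genes at or below 0.203 CPM. Fibroblast genes summed to 2.65 and 2.74 CPM in C4-2 libraries and 6.84 and 8.29 CPM in LNCaP libraries, nearly all from COL1A1, and endothelial genes to 3.62 and 3.38 CPM in C4-2 libraries and 4.56 and 4.25 CPM in LNCaP libraries, nearly all from VWF. CD3E and COL1A2 were at 0 in all 4 libraries, and the part of other cell types in the results was not tested.

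H/ACA snoRNAs are short nuclear RNAs that fold into a pair of hairpins joined by a hinge, the H box (consensus ANANNA), and that end with the triplet ACA placed 3 bases before the 3′ end. Each hairpin can hold a pocket that base-pairs with ribosomal RNA, and the dyskerin complex bound to the snoRNA turns the uridine held there into pseudouridine. ScaRNAs work in the Cajal body, a nuclear body where the small nuclear RNAs of the spliceosome are modified, and they can be of the H/ACA kind, of the C/D kind that directs 2′-O-methylation, or of both kinds in the same molecule. In human cells most of these RNAs lie in introns of other genes, the host genes, and are cut out of the spliced intron by debranching and exonuclease trimming, so that a host's transcription and its splicing can both set their supply. Levels of such RNAs in bulk RNA reflect the cells sequenced as a whole, and a change in RNA per cell cannot be told apart here from a change in the share of cells that make it.

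The sequences below are those the comparisons turn on, read from GRCh37 at the deposited hg19 positions and written as DNA, 5′ to 3′ along the RNA. Capitals mark the ANANNA nearest the middle of the RNA and the ACA at the 3′ end. SNORA80A (chr21:33749496-33749631, minus strand), SNORA80B (chr2:10586840-10586975, minus strand) and SNORA54 (chr11:2985001-2985123, minus strand) had the highest fold changes in C4-2. SNORA80A and SNORA80B are near copies of each other.
SNORA80A: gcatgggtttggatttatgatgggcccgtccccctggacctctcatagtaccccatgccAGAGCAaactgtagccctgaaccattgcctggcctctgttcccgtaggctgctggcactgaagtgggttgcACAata
SNORA80B: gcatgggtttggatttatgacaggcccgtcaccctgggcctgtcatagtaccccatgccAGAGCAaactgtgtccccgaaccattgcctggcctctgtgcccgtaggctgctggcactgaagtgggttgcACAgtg
SNORA54: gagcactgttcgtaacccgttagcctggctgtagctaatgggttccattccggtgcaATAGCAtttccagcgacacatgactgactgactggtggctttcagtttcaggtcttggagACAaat
SNORA8 (chr11:93465527-93465665, minus strand) and SNORA32 (chr11:93464145-93464265, minus strand) lie in introns of the same gene, TAF1D, and differed in opposite directions.
SNORA8: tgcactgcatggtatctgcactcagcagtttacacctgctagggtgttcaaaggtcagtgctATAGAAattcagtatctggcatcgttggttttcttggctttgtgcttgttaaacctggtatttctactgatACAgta
SNORA32: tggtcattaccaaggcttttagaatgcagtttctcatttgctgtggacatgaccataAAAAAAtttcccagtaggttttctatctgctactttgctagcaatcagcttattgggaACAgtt
SNORA2C (chr12:49048165-49048301, minus strand) and SNORA2B (chr12:49061240-49061376, minus strand) are relatives in introns of KANSL2 that also differed in opposite directions.
SNORA2C: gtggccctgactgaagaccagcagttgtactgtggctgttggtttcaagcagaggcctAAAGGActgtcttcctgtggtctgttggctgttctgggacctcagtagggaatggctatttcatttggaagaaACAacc
SNORA2B: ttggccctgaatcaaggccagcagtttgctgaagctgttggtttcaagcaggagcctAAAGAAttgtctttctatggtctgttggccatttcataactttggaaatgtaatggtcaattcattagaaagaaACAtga

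These letters are shared across the named genes. ACA followed by 3 bases ended 84 of 105 SNORA sequences (80%) and 15 of 24 SCARNA sequences (62.5%), against 2 of 261 sequences (0.766%) of C/D box snoRNAs, the SNORD genes. Read on the opposite strand, the same letters were found in 3.81% of SNORA and 0% of SCARNA sequences. ANANNA occurred between 35% and 65% of the length in 95.2% of SNORA, 87.5% of SCARNA and 33.7% of SNORD sequences, and on the opposite strand in 41.9%, 58.3% and 24.5%. TGATGA, the letters of the C box of C/D RNAs, stood in the first 20 bases of 5 SCARNA sequences (20.8%), SCARNA5, SCARNA6, SCARNA7, SCARNA10 and SCARNA12, of 69.7% of SNORD sequences and of 0.952% of SNORA sequences. The ACA and TGATGA windows thus differed widely in frequency between the classes, whereas ANANNA, a loose motif, was common on either strand.

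A few genes held a large share of the tags of both classes. SNORA63 had 454.8 and 516.9 CPM in C4-2 libraries and 382.5 and 358.1 CPM in LNCaP libraries, which was 31.19% and 31.91% of all SNORA tags in C4-2 and 32.1% and 30.88% in LNCaP. Per length, it averaged 2439 ± 274.8 RPKM in C4-2 and 923.3 ± 37.96 RPKM in LNCaP (SD, n = 2 each), while the median SNORA gene had 10.88 RPKM in C4-2 and 5.627 RPKM in LNCaP. RPKM is scaled by the authors' totals, and on that scale levels of different genes can be set side by side. Other abundant SNORA genes were SNORA48, SNORA57, SNORA68 and SNORA71A, at 598.4, 464.4, 444.2 and 313.9 RPKM in C4-2 and 104.8, 106.7, 52.27 and 148.2 RPKM in LNCaP. At the other end, SNORA11C, SNORA35, SNORA70C and SNORA70G had 0 tags in all 4 libraries.

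The scaRNA pool was made up differently in the lines. SCARNA10, which guides both methylation and pseudouridylation of the U5 small nuclear RNA, had 228.7 and 234.6 CPM in C4-2 libraries and 994.6 and 993.5 CPM in LNCaP libraries. It held 19.55% and 20.75% of SCARNA tags in C4-2 and 53.16% and 50.77% in LNCaP. SCARNA2, a methylation guide for the U2 small nuclear RNA that has its own promoter, had 415.6 and 381.1 CPM in C4-2 libraries and 176.0 and 208.9 CPM in LNCaP libraries. It held 35.53% and 33.7% of SCARNA tags in C4-2 and 9.406% and 10.67% in LNCaP, so the leading scaRNA was SCARNA2 in both C4-2 libraries and SCARNA10 in both LNCaP libraries. These shares within a library do not depend on how libraries are scaled. All SCARNA genes together came to 1170 and 1131 CPM in C4-2 libraries and 1871 and 1957 CPM in LNCaP libraries. Without SCARNA10 the sums were 940.9 and 896.2 CPM in C4-2 libraries and 876.4 and 963.5 CPM in LNCaP libraries, and the lines overlapped. These sums still hold SCARNA2, which was higher in C4-2 and offsets lower genes. The overlap therefore does not place the difference in SCARNA10 alone.

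SNORA genes together came to 1458 and 1620 CPM in C4-2 libraries and 1191 and 1160 CPM in LNCaP libraries. As shares of the sense tags of named genes these were 0.1436% and 0.1605% in C4-2 and 0.1215% and 0.1165% in LNCaP, and SCARNA shares were 0.1152% and 0.112% in C4-2 and 0.1908% and 0.1966% in LNCaP. With 2 libraries against 2, the exact permutation test (two-sided) cannot go below p = 0.333, and it gave 0.333 for either class. For each SCARNA tag there were 1.247 and 1.433 SNORA tags in C4-2 libraries and 0.6368 and 0.5927 in LNCaP libraries, a ratio free of library scaling. Per 1000000 tags of the authors' totals, SNORA genes had 971.7 and 1114 tags in C4-2 and 377 and 415.4 tags in LNCaP, and SCARNA genes had 779.5 and 777.9 tags in C4-2 and 592 and 700.9 tags in LNCaP. On that scale the SCARNA sum was thus higher in C4-2, opposite to its order in CPM.

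**Figure D1:**
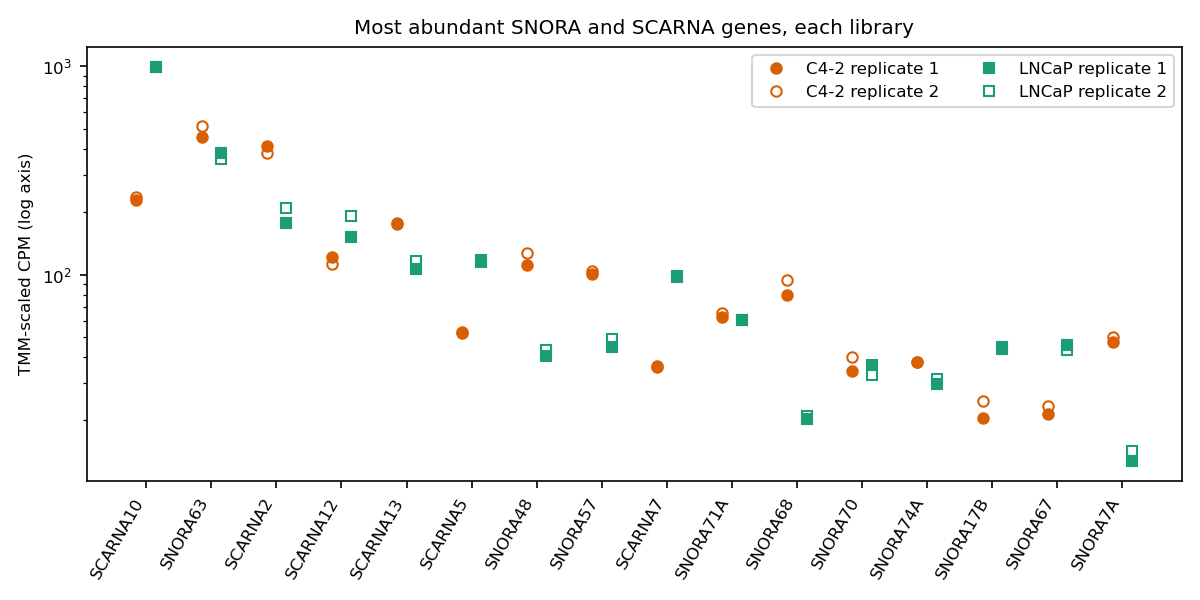
TMM-scaled CPM (log axis) of the 10 SNORA and 6 SCARNA genes with the highest mean level, with C4-2 libraries as orange circles to the left of LNCaP libraries as green squares for each gene. Replicates lie close together, SCARNA10 stands at 228.7 and 234.6 CPM in C4-2 against 994.6 and 993.5 CPM in LNCaP, and SNORA71A and SNORA70 are at nearly the same level in both lines.

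Among the 117 genes with enough tags to test, 94 SNORA and 23 SCARNA, fewer were higher in C4-2 and more were lower than among all genes. In edgeR's quasi-likelihood test with Benjamini-Hochberg adjustment over 15975 genes, at an adjusted p under 0.05, 31 were higher (26.5%) and 62 lower (53%), and 24 were not called. Of all genes tested, 40.2% were higher and 39.7% lower, 80% in all, so most genes differed between the lines by this test. The median log2 fold change, C4-2 over LNCaP, was −0.49 over the 117 genes and −0.01 over all genes. The SNORA genes split into 27 higher and 45 lower with a median of −0.41, and the SCARNA genes into 4 higher and 17 lower with a median of −1.14. Scaling by the authors' totals gave 58 higher and 22 lower with a median of 0.52, where 72.4% of all genes were higher and 11% lower with a median of 0.99. The median of these RNAs was therefore below that of all genes under both scalings, while its sign was not the same. With the totals 21 of the 93 calls changed sign, and 31 higher and 22 lower calls kept their sign and passed again. The other 12 genes, SCARNA14 and 11 SNORA genes among which 6 were copies of SNORA70, had at most 8 tags in any library and were not tested.

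**Figure D2:**
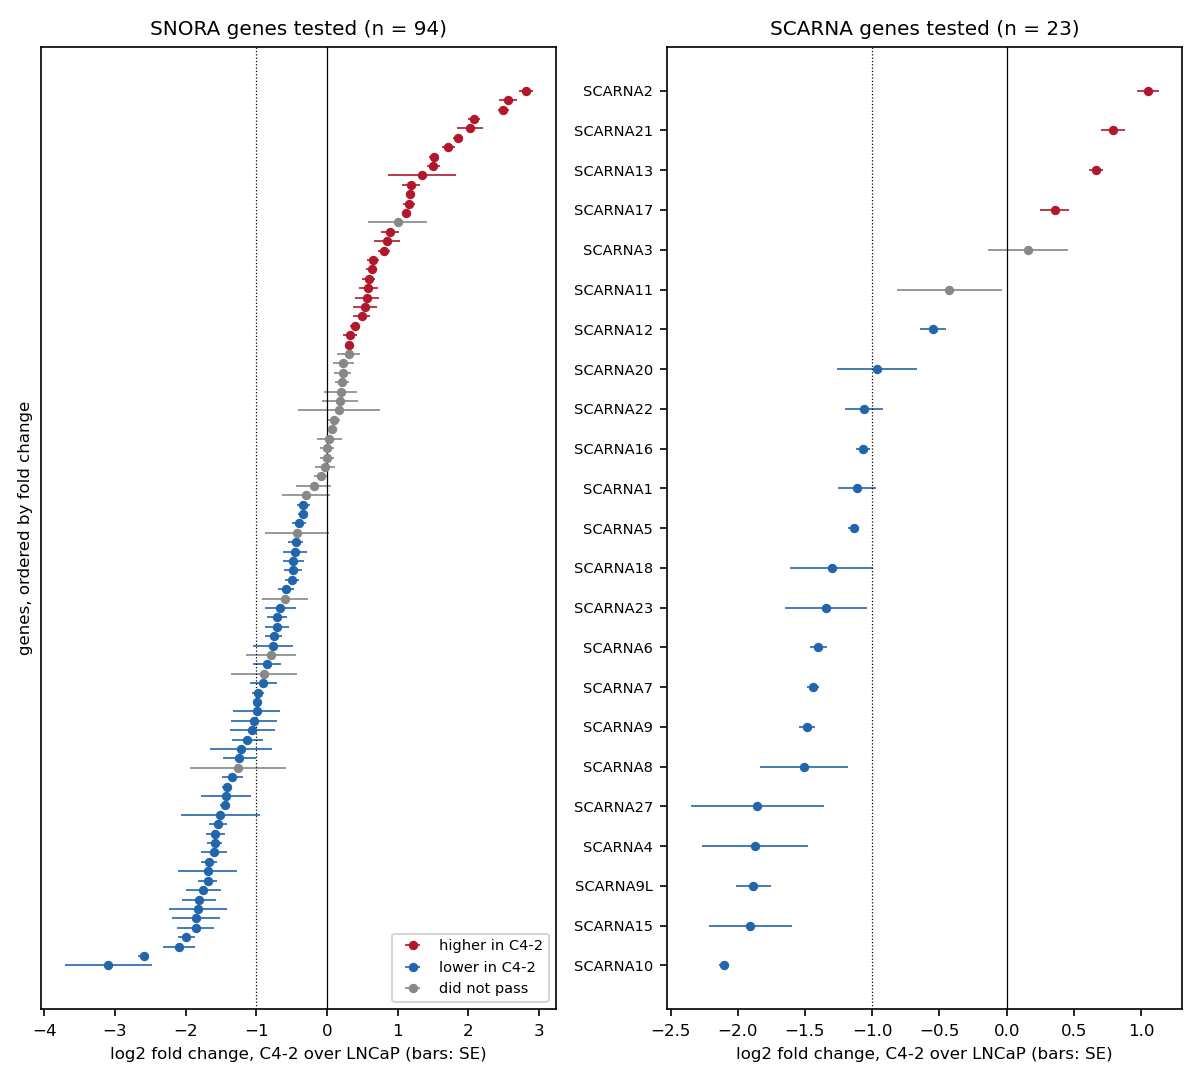
Log2 fold change, C4-2 over LNCaP, of each SNORA gene (left) and SCARNA gene (right) tested, ordered by value, with bars for the SE and colours for the call. The axes of the panels differ in range, and the dotted line at −1 marks where 0 would lie with scaling by the authors' totals. SNORA genes spread from −3.09 to 2.81, and 17 of 23 SCARNA genes lie in the lower group.

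The highest fold changes among genes at an average of 1 CPM or more were SNORA80A, SNORA54, SNORA80B, SNORA68, SNORA78 and SNORA7A. SNORA80A, in an intron of the ribosome biogenesis gene URB1, had 15.3 and 16.58 CPM in C4-2 libraries against 2.314 and 2.218 CPM in LNCaP libraries, 7.035-fold higher (log2 fold change 2.81 ± 0.093 SE, edgeR adjusted p = 8.59e-08). SNORA54, in an intron of the histone chaperone gene NAP1L4, had 11.28 and 13.03 CPM in C4-2 libraries against 1.848 and 2.232 CPM in LNCaP libraries, 5.919-fold higher (2.57 ± 0.127, edgeR adjusted p = 5.17e-07). SNORA80B, in an intron of the ornithine decarboxylase gene ODC1, had 27.59 and 30.07 CPM in C4-2 libraries against 5.193 and 5.029 CPM in LNCaP libraries, 5.641-fold higher (2.50 ± 0.076, edgeR adjusted p = 5.81e-08). In each of these genes both C4-2 libraries lay far above both LNCaP libraries, and the hosts differed less: URB1 by 0.92, NAP1L4 by 1.01 and ODC1 by 0.38 on the log2 scale, each higher in C4-2. SNORA68 had 79.99 and 94.28 CPM in C4-2 libraries against 20.21 and 20.96 CPM in LNCaP libraries (log2 fold change 2.08), higher in both C4-2 libraries. SNORA7A had 47.22 and 50.25 CPM in C4-2 libraries against 12.73 and 14.25 CPM in LNCaP libraries (1.85), and its host RPL32, a ribosomal protein gene, was lower at −0.42, which turned to 0.58 with the authors' totals. SNORA78 had 2.745 and 3.399 CPM in C4-2 libraries against 0.7157 and 0.7911 CPM in LNCaP libraries (2.02), and its host SNHG9, a long non-coding RNA gene, stood at 0.06 and did not pass. SNORA78 overlaps an exon, so this pair may share tags. Less as many tags as SNORA78 had, SNHG9 came to 19.74 and 17.61 CPM in C4-2 libraries against 18.64 and 21.45 CPM in LNCaP libraries. Without LNCaP replicate 2, SNHG9 passed at 0.17.

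The lowest fold changes at that level were those of SNORA32, SCARNA10, SNORA81, SCARNA9L, SNORA27 and SNORA25. SNORA32 had 4.799 and 5.086 CPM in C4-2 libraries against 31.38 and 28.25 CPM in LNCaP libraries, 6.036-fold lower in C4-2 (log2 fold change −2.59 ± 0.078 SE, edgeR adjusted p = 5.76e-08). SCARNA10, at the levels given above, was 4.291-fold lower (−2.10 ± 0.035, edgeR adjusted p = 4.05e-09), and its host, the condensin subunit gene NCAPD2, stood at −0.11 and did not pass (0.89 with the authors' totals). NCAPD2 passed as lower without LNCaP replicate 1 (−0.14), with DESeq2, its size factors or scaling without small RNAs (−0.12 each), and with the filter of 1 CPM (−0.19). SNORA81, in an intron of the translation factor gene EIF4A2, had 1.407 and 1.568 CPM in C4-2 libraries against 5.576 and 6.174 CPM in LNCaP libraries (−1.99 ± 0.125, edgeR adjusted p = 1.92e-06). All 6 of these genes were also lower with scaling by the authors' totals, with log2 fold changes between −1.58 for SNORA32 and −0.67 for SNORA25. SNORA27 differed by about as much as its host, the ribosomal protein gene RPL21, with −1.69 for the snoRNA and −1.70 for the host. SCARNA9L had 1.544 and 1.585 CPM in C4-2 libraries against 6.308 and 5.255 CPM in LNCaP libraries (−1.88), and its host EIF1AX was at −0.39, turned to 0.62 with the authors' totals. Below that level, SNORA11 in MAGED2 had the lowest value of all, −3.09, from 4 and 2 tags in C4-2 libraries against 15 and 10 tags in LNCaP libraries; it was named after its values were seen.

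Among abundant SNORA genes that were not extreme, SNORA48 had 111.4 and 126.9 CPM in C4-2 libraries against 40.46 and 43.29 CPM in LNCaP libraries, a log2 fold change of 1.51. SNORA57 had 100.5 and 103.8 CPM in C4-2 against 45.06 and 48.94 CPM in LNCaP (1.12), and its host CSKMT, a methyltransferase gene, was at 0.22. CSKMT lost its call without C4-2 replicate 2 (0.17) or LNCaP replicate 1 (0.16), and also with DESeq2 (0.22), the filter of 1 CPM (0.14), summed entries (0.23), scaling without small RNAs (0.21), the replicate block (0.22) and both strands, where it stood at 0.0599. SNORA74A, in the matrin gene MATR3 (0.60), had 38.04 and 38.19 CPM in C4-2 against 29.78 and 31.64 CPM in LNCaP (0.31). SNORA48, SNORA57 and SNORA74A were called higher in C4-2, as were 40.2% of all genes. SNORA17B, in the long non-coding RNA gene SNHG7 (−0.73), had 20.37 and 24.71 CPM in C4-2 against 44.81 and 43.84 CPM in LNCaP (−0.98), and this direction was lost with the authors' totals, which gave 0.0317 for the snoRNA and 0.28 for SNHG7. SNORA71A, at 62.53 and 65.35 CPM in C4-2 against 60.44 and 60.78 CPM in LNCaP, and SNORA70, at 34.43 and 40.07 CPM in C4-2 against 36.7 and 33.02 CPM in LNCaP, did not pass, with log2 fold changes of 0.08 ± 0.046 and 0.10 ± 0.085 (SE). SNORA70 lies in RPL10, a ribosomal protein gene that did not pass either (log2 fold change −0.004, or 1.0 with the authors' totals). SNORA70 itself rested on single libraries, with 0.21 and a pass without C4-2 replicate 1, 0.18 and a pass without LNCaP replicate 1, and −0.00964 without C4-2 replicate 2.

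Most scaRNAs were lower in C4-2 relative to the typical gene, and 4 were higher. Besides SCARNA2 (log2 fold change 1.05, in no host by the deposited spans), SCARNA21, SCARNA13 and SCARNA17 were higher in C4-2. SCARNA21, in the chromatin remodeller gene CHD3, had 45.56 and 44.29 CPM in C4-2 libraries against 23.45 and 28.42 CPM in LNCaP libraries, with 0.79 for the scaRNA and 0.73 for the host. SCARNA13, in the long non-coding RNA gene SNHG10, had 177.6 and 174.5 CPM in C4-2 against 105.9 and 116.2 CPM in LNCaP (0.66), and SCARNA17 had 14.09 and 14.42 CPM in C4-2 against 9.737 and 12.47 CPM in LNCaP (0.36). These 4 were higher by the authors' totals too. SNHG10 was at 0.32, a call lost with summed entries (0.10, adjusted p = 0.117), and SCARNA13 overlaps an exon of it. SCARNA13 had as many tags as 90.93% and 90.91% of those of SNHG10 in C4-2 libraries and 71.64% and 71.87% in LNCaP libraries, and the remainder came to 17.71 and 17.45 CPM in C4-2 against 41.92 and 45.49 CPM in LNCaP, the opposite order. The scaRNA and host values of this pair may thus share tags. SCARNA3, in COP1 (0.44), and SCARNA11, in CHD4 (0.52), did not pass, at 0.16 and −0.43. Without LNCaP replicate 2, SCARNA3 stood at −0.12.

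The 17 SCARNA genes lower in C4-2 lay between −0.55 and −2.10. SCARNA12, in the prohibitin gene PHB2, was the least low, with 121.1 and 112.7 CPM in C4-2 libraries against 151.7 and 190.4 CPM in LNCaP libraries, −0.55 for the scaRNA and −0.51 for the host, of which both turned positive with the authors' totals (0.45 and 0.49). SCARNA5 and SCARNA6 lie in the autophagy gene ATG16L1, which was higher in C4-2 at 0.56. SCARNA5 had 52.89 and 52.5 CPM in C4-2 against 117.0 and 114.9 CPM in LNCaP (−1.14), and SCARNA6 had 27.95 and 26.11 CPM in C4-2 against 68.16 and 74.61 CPM in LNCaP (−1.40). Both were thus lower in C4-2 while their host was higher, though with the authors' totals SCARNA5 did not pass (−0.13). SCARNA7, in the importin gene KPNA4 (0.17, a call lost without C4-2 replicate 2, at 0.14), had 35.83 and 36.44 CPM in C4-2 against 98.89 and 97.01 CPM in LNCaP (−1.44). SCARNA9, in CEP295 (−0.44), had 14.68 and 15.99 CPM in C4-2 against 42.23 and 43.51 CPM in LNCaP (−1.49). SCARNA16, in SEC14L1 (0.25), had 22.14 and 22.93 CPM in C4-2 against 46.76 and 47.69 CPM in LNCaP (−1.07), and SCARNA22, in NSD2 (0.58), had 8.11 and 9.426 CPM in C4-2 against 21.19 and 15.44 CPM in LNCaP (−1.06). In these 7 genes every C4-2 library was below every LNCaP library, which adds little, since they were taken from the genes called lower. The share of all genes with such an order was not counted, and 80% of all genes were called in either direction.

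Beside SCARNA10 and SCARNA9L, the remaining 8 of the 17 were scarce, at no more than 4.577 CPM in any library. SCARNA1 (−1.11) lies in PPP1R8 (−0.23), SCARNA20 (−0.96) in USP32 (0.22), SCARNA23 (−1.35) in POLA1 (0.43), SCARNA8 (−1.51) in HAUS6 (−0.19) and SCARNA18 (−1.30) in TMEM167A (−0.65). SCARNA27 (−1.86) lies in EEF1E1 (−0.73), SCARNA4 (−1.87) in KHDC4 (−0.70), and SCARNA15 (−1.91) in no host by the deposited spans. SCARNA20 lost its call without C4-2 replicate 2 (−0.92) or LNCaP replicate 1 (−0.64), SCARNA27 without LNCaP replicate 2 (−1.46), and the host HAUS6 without C4-2 replicate 1 (−0.16). With the authors' totals 6 SCARNA genes were higher and 6 lower, and SCARNA10, SCARNA6, SCARNA7, SCARNA9, SCARNA9L and SCARNA15 were the lower ones. The 14 tested SCARNA genes that ended with ACA and 3 bases had 2 higher, 10 lower and a median of −1.09, and the 9 without that end had 2 higher, 7 lower and a median of −1.40.

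Length went with level among scaRNAs. The 10 SCARNA genes longer than 200 bases had a median of 101.3 RPKM in C4-2 and 118.3 RPKM in LNCaP, and the 14 shorter ones 1.476 RPKM in C4-2 and 1.656 RPKM in LNCaP. Across the 24 SCARNA genes Spearman's rho of length and mean RPKM was 0.64, and across the 105 SNORA genes, most of them close to the median of 134 bases, it was 0.29. These are descriptions across genes of the same libraries. The labels name a column kit for RNA purification, and its part in the levels of RNAs this short was not tested.

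The balance of calls went with abundance. Of the 36 genes tested with a log2 average CPM under 0, 1 was higher in C4-2 and 25 were lower (median −1.23), where all genes at that level had 11.6% higher and 53.2% lower (median −0.95). At 0 to 3, 10 of 38 were higher and 18 lower (median −0.11), where all genes had 31.5% higher and 47.4% lower (median −0.25). At 3 or more, 20 of 43 were higher and 19 lower (median 0.10), where all genes had 51.1% higher and 33.6% lower (median 0.16). The slope with level was therefore also present in all genes, and in each band the median of these RNAs lay nearer to that of all genes than it did over the whole range. Across the 117 genes Spearman's rho of level and log2 fold change was 0.39, a description in which all points share the 4 libraries. The scarce gene that was higher was SNORA11D (1.35), with 26 and 23 tags in C4-2 libraries against 4 and 5 tags in LNCaP libraries, a call that did not pass on leaving out any library (adjusted p 0.0786 to 0.145).

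**Figure D3:**
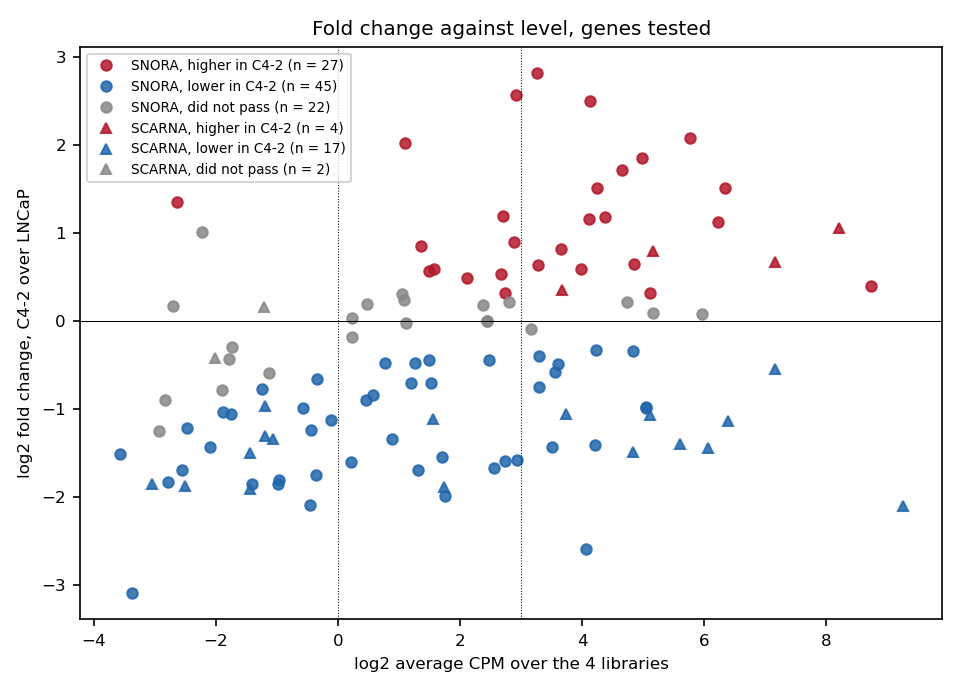
Log2 fold change, C4-2 over LNCaP, against log2 average CPM over the 4 libraries for the tested genes, with circles for SNORA, triangles for SCARNA and colours for the call. Dotted lines split the levels at 0 and 3. Left of 0 there is 1 higher gene against 25 lower ones, and right of 3 there are 20 higher and 19 lower.

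Position in the host was set beside the calls. By GENCODE models of GRCh37, 89 SNORA and 19 SCARNA genes lay inside introns, 15 SNORA and 5 SCARNA genes overlapped an exon, and 1 SNORA gene lay between genes. Of the 97 intronic genes tested, 23 were higher (23.7%) and 55 lower (56.7%) in C4-2, with a median of −0.70. Of the 20 that overlapped an exon 8 were higher (40%) and 7 lower (35%), with a median of −0.005. Of all genes tested, 40.2% were higher and 39.7% lower, with a median of −0.01. Tags of the second kind cannot always be told apart from spliced RNA of the gene whose exon they overlap. SCARNA22, SNORA78 and SNORA7A are of this kind, with up to 21.72%, 16.18% and 3.838% as many tags as their hosts in a library. SNORA71A had 796.3% to 1721% as many tags as its host SNHG17, and SNORA71C 140.4% to 240.6%, more than that host's own count. The 14 SNORA genes in SNHG hosts, long non-coding genes known for carrying snoRNAs, had 6 higher and 3 lower (median 0.20). The 18 genes in ribosomal protein genes had 5 higher and 8 lower, and those 15 hosts 6 higher and 7 lower. The difference between these classes, and the part of level in it, was not tested.

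Host genes had calls close to those of genes of their level. Of 93 hosts tested, 48 were higher in C4-2 (51.6%) and 34 lower (36.6%), with a median log2 fold change of 0.15. A log2 average CPM of 3 or more was reached by 87 of them, and all genes at that level had 51.1% higher, 33.6% lower and a median of 0.16. With the authors' totals 82 hosts were higher and 1 lower. There were 106 pairs of a tested RNA and its host, over 83 hosts. Among the 74 pairs in which both were called, 39 went the same way, 14 higher and 25 lower, and 35 went opposite ways. In 27 of the opposite pairs the small RNA was lower and the host higher in C4-2, and in 8 the small RNA was higher and the host lower. Across pairs Pearson's r of the log2 fold changes was 0.19 and Spearman's rho 0.17, as a description, since pairs share libraries and some share a host. The pairs include small RNAs that overlap an exon, whose tags may also be counted in the host. SNORA59A and SNORA59B, which have the same tags, enter as separate pairs. The small RNA was more than 1 above its host in 14 pairs and more than 1 below it in 38, on the log2 scale, a difference that does not depend on library scaling. The middle 50% of values spanned 1.65 for the small RNAs and 0.90 for the hosts, so the small RNAs were spread more widely than the genes that carry them. Of the 117 tested small RNAs, 43 had a log2 average CPM of 3 or more, against 87 of the 93 hosts. All genes under 0 had a median of −0.95 and a middle 50% that spanned 1.90, against 0.16 and 0.97 at 3 or more. The part of level in the differences between small RNAs and hosts was not tested.

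**Figure D4:**
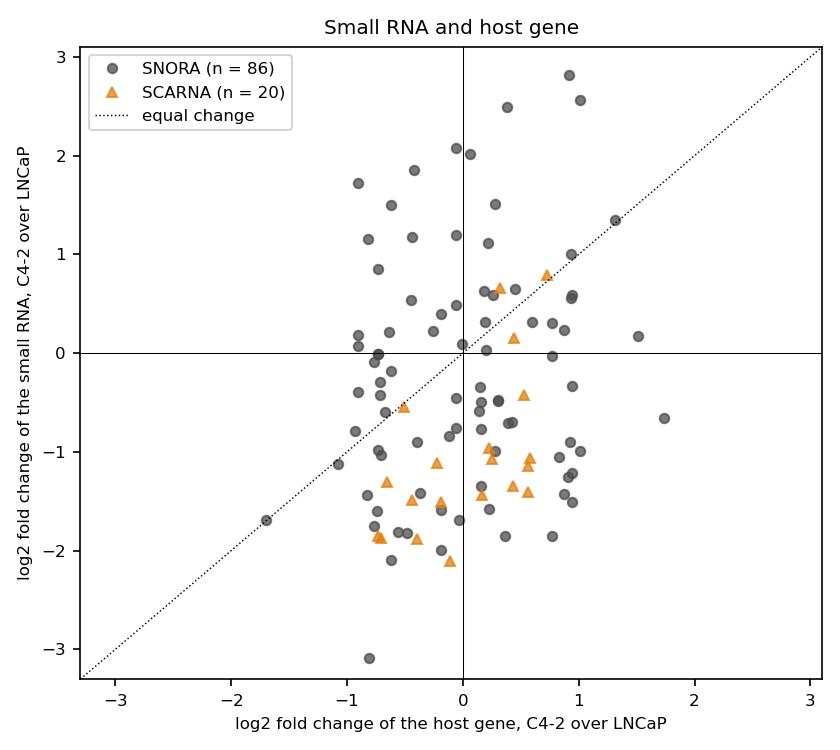
Log2 fold change, C4-2 over LNCaP, of the small RNA (vertical) against that of its host gene (horizontal) for 106 pairs, with circles for SNORA and triangles for SCARNA and a dotted line of equal change. Points scatter widely around the line, with 38 small RNAs more than 1 below it and 14 more than 1 above it.

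Small RNAs of the same host could differ in opposite directions, and their tag ratios within a library need no scaling. Of 17 hosts that carry at least 2 tested SNORA or SCARNA genes, 44 genes in all, 8 held genes called in both directions. The pairs below were picked as the top and bottom of their host, so the contrasts are descriptions, and these genes were named after their values were seen. TAF1D, which encodes a subunit of the RNA polymerase I factor SL1, carries 6 SNORA genes by GENCODE models. Along the minus strand they run SNORA40, SNORA18, SNORA8, SNORA1, SNORA32 and SNORA25, with log2 fold changes of −1.55, −0.44, 0.81, −1.24, −2.59 and −1.67, while TAF1D stood at −0.72. The deposited entry of TAF1D (chr11:93469096-93474703) holds none of the 6, so its value was not measured over the span that carries them. They are not among the 106 pairs. SNORA8 had 15.03 and 16.3 CPM in C4-2 libraries against 9.421 and 8.434 CPM in LNCaP libraries. For each SNORA32 tag there were 3.131 and 3.205 SNORA8 tags in C4-2 libraries and 0.3003 and 0.2985 in LNCaP libraries, so the order of this pair was turned round between the lines. With the authors' totals SNORA18 and TAF1D turned positive (0.56 and 0.29), and SNORA18 lost its call without C4-2 replicate 1 (−0.32).

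KANSL2, a subunit gene of a histone acetyltransferase complex, stood at −0.62 (0.38 with the authors' totals) and carries SNORA2A, SNORA2B and SNORA2C. SNORA2C had 25.71 and 29.4 CPM in C4-2 libraries against 10.29 and 9.169 CPM in LNCaP libraries (log2 fold change 1.503). SNORA2B had 0.3299 and 0.3221 CPM in C4-2 libraries against 1.548 and 1.257 CPM in LNCaP libraries (−2.09), and SNORA2A did not pass (−0.18, or 0.83 with the authors' totals and 0.12 without C4-2 replicate 1). There were 77.94 and 91.26 SNORA2C tags for each SNORA2B tag in C4-2 libraries and 6.645 and 7.292 in LNCaP libraries.

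The translation factor genes EIF4A1 and EIF4A2 gave a like picture. In EIF4A1 (0.28), SNORA48 was higher and SNORA67 lower in C4-2 (1.51 and −0.99), with 5.204 and 5.424 SNORA48 tags for each SNORA67 tag in C4-2 libraries and 0.8856 and 1.002 in LNCaP libraries; with the authors' totals SNORA67 stood at 0.0198. SNORA67 overlaps an exon, and the readthrough gene SENP3-EIF4A1 spans both (0.28). In EIF4A2 (−0.19, or 0.82 with the authors' totals and −0.16 without a pass when C4-2 replicate 1 was left out), SNORA63 was at 0.39, SNORA4 at −1.59 and SNORA81 at −1.99, and SNORA63 tags outnumbered SNORA81 tags by 323.3 and 329.6 to 1 in C4-2 libraries and by 68.59 and 58.01 to 1 in LNCaP libraries. In SNHG17 (−0.91, or 0.0948 with the authors' totals), SNORA71D had 37.23 and 38.69 CPM in C4-2 against 10.3 and 12.71 CPM in LNCaP (1.72), whereas SNORA71C was lower (−0.39, or 0.61 with the authors' totals), and SNORA71A and SNORA71B did not pass. Leaving out C4-2 replicate 1 put SNORA71B at 0.58 with a pass, and leaving out C4-2 replicate 2 put it at −0.29. In RPS2 (0.94) SNORA64 was higher (0.59) and SNORA10 lower (−0.34, or 0.68 with the authors' totals). In DKC1 itself (0.94), the gene of the pseudouridine synthase dyskerin, SNORA36A and SNORA56 were both lower (−1.51 and −1.21), from 5 to 23 tags in each library. SNORA36A lost its call without LNCaP replicate 1 (−1.48) or 2 (−1.53), and SNORA56 lost its call without C4-2 replicate 1 (−1.44), C4-2 replicate 2 (−1.03) or LNCaP replicate 2 (−0.72).

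**Figure D5:**
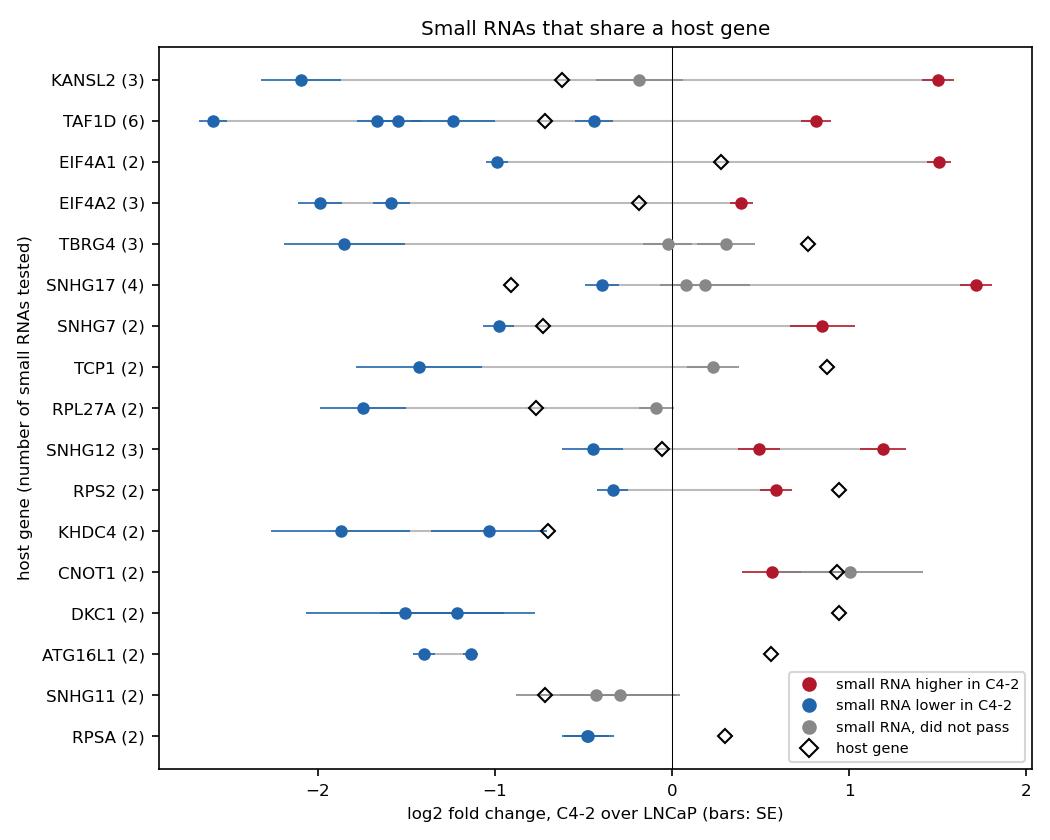
Log2 fold change, C4-2 over LNCaP, of each tested small RNA (filled circles with SE bars, coloured by call) in the 17 hosts that carry at least 2 of them, with the host gene as an open diamond. In KANSL2, TAF1D, EIF4A1, EIF4A2, SNHG17, SNHG7, SNHG12 and RPS2 a higher and a lower small RNA lie in the same host.

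Near copies limit what a tag can be assigned to. Among 17 families of related symbols, 6 pairs were at least 90% identical, and how the authors' counting split reads among them is not given in the sources used here. SNORA59A and SNORA59B were identical (100%) with the same tags and the same host, SLC47A1, so they may be a single position under separate names. SNORA59B was left out of sums but stayed in the counts of tested genes and of host pairs. SNORA7A and SNORA7B (98.6%) were both higher in C4-2, at 1.85 and 1.16, as were SNORA80A and SNORA80B (91.9%). SCARNA9 and SCARNA9L (92.6%) were both lower, at −1.49 and −1.88. The more distant relative SNORA80E, 75% identical to SNORA80A, was lower (−1.03), with 0.1867 and 0.1865 CPM in C4-2 libraries against 0.4328 and 0.3391 CPM in LNCaP libraries, a call lost without C4-2 replicate 1 (−1.03), C4-2 replicate 2 (−1.03) or LNCaP replicate 1 (−0.85).

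Among 7 lists of genes around these particles, more genes were called higher in C4-2 than lower. The lists reach beyond H/ACA particles, to stand-alone pseudouridine synthases, C/D core proteins and telomerase with its RNA. Of the 12 stand-alone synthases 8 were higher, and of the 4 C/D core proteins all 4. Of 56 genes in 7 lists, 35 were higher (62.5%) and 13 lower (23.2%), with a median log2 fold change of 0.44, beside 40.2% and 39.7% of all genes. Of the 56, 54 had a log2 average CPM of 3 or more, where all genes had 51.1% higher, 33.6% lower and a median of 0.16. Among the 4 core H/ACA proteins, DKC1, the catalytic subunit, had 262.1 ± 5.926 CPM in C4-2 and 136.2 ± 0.4023 CPM in LNCaP (SD, n = 2 each; log2 fold change 0.94). GAR1 was higher (0.56), NHP2 did not pass (0.09 ± 0.055 SE, and 0.17 with a pass without LNCaP replicate 2), and NOP10 was lower at −0.60, which turned to 0.41 with the authors' totals. Of 8 assembly factors 5 were higher and 1 lower, with the ATPases RUVBL1 and RUVBL2 at 0.81 and 0.96 and the dyskerin chaperone SHQ1 at 0.35. NOPCHAP1, a snoRNP assembly cofactor, was the lower gene (−0.78, or 0.23 with the authors' totals).

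Cajal body genes were split, with 10 of 19 higher (52.6%) and 8 lower (42.1%). For this list and those below, all genes at a log2 average CPM of 3 or more had 51.1% higher and 33.6% lower. WRAP53, which binds scaRNAs and brings them to Cajal bodies, had 34.69 ± 1.26 CPM in C4-2 and 18.63 ± 1.767 CPM in LNCaP (SD, n = 2 each; 0.90). NOLC1, a chaperone of snoRNPs, was at 1.03 and the SMN complex gene GEMIN4 at 1.42. Coilin, the scaffold of the Cajal body, had 41.21 ± 0.6147 CPM in C4-2 and 57.17 ± 2.995 CPM in LNCaP (COIL, −0.47, or 0.54 with the authors' totals), and GEMIN2 was at −1.12. SMN1 and SMN2 share the same tags and are counted here as 2 of the 8 lower genes. Of 7 genes that release introns and trim ends 5 were higher and 1 lower, including the debranching enzyme gene DBR1 (0.58), the exonuclease genes XRN2 (0.88) and DIS3 (0.78) and, as the lower gene, EXOSC10 (−0.18, or 0.83 with the authors' totals and −0.12 without a pass when C4-2 replicate 2 was left out). Of 12 stand-alone pseudouridine synthases 8 were higher and 2 lower, with RPUSD1 at 1.11, PUS1 at 0.96 and PUS7L at −0.40 (0.61 with the authors' totals).

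Telomerase RNA, which carries an H/ACA domain without being named SNORA, had 86.28 ± 4.932 CPM in C4-2 and 91.36 ± 4.471 CPM in LNCaP (TERC, SD, n = 2 each), a log2 fold change of −0.08 ± 0.055 (SE) that did not pass and that was 0.92 with the authors' totals and −0.13 with a pass without LNCaP replicate 1. The reverse transcriptase gene TERT had 3.139 ± 0.1166 CPM in C4-2 and 2.467 ± 0.1126 CPM in LNCaP (0.35, edgeR adjusted p = 0.0295), and without C4-2 replicate 1, C4-2 replicate 2 or LNCaP replicate 2 it did not pass (0.40, 0.32 and 0.30).

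The SNORD genes, C/D box snoRNAs among which are guides of ribosomal RNA methylation, were set beside the H/ACA RNAs as the most alike class. Of 261 listed, 151 were tested. Of these 3 were higher (1.99%), 115 lower (76.2%) and 33 not called, beside 40.2% higher and 39.7% lower of all genes. Their median log2 fold change was −1.16, and their middle 50% spanned 0.82, against 1.72 for SNORA genes. SNORA genes thus had more members on the higher side, 27 of 94. With a filter of at least 1 CPM in 2 libraries, 3 SNORD genes were higher and 60 lower. Of all genes at a log2 average CPM under 0, 11.6% were higher and 53.2% lower. The difference between the classes, and the part of level in it, was not tested. All 4 core C/D proteins were higher in C4-2, with the methyltransferase gene FBL at 0.79, NOP56 at 1.01, NOP58 at 0.79 and SNU13 at 0.65. With the authors' totals 24 SNORD genes were higher and 23 lower.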

How the data were processed

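Per the labels' protocols, total RNA was depleted of ribosomal RNA, made into TruSeq libraries and sequenced on a HiSeq 2000. Per the submitters' processing notes, TopHat2 2.0.6 and Bowtie served for the alignment, with hg19 (GRCh37) as the build. Per the file headers, the authors deposited a tag count and an RPKM per strand for 41351 RefSeq entries. Which tool counted the tags, and on which transcript version, is not given. RPKM values were used only for levels between genes and for the library totals behind them.

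A RefSeq table of GRCh38.p14, used for names only, named 38974 of 40304 accessions. The entry with the most tags stood for each symbol. Unnamed entries, 2.06% to 2.15% of sense tags, were left out. Opposite-strand tags were 1.29% to 1.99% over named genes and 0.133% to 0.162% over the SNORA and SCARNA genes. Counts were tested with edgeR 4.0.16 (R 4.3.3; filterByExpr, TMM, quasi-likelihood, cell line only), adjusted by Benjamini-Hochberg over 15975 genes, with a call at 0.05. The SE was derived from the F statistic. The procedure was tested on simulated data. Replicates differed beyond sampling noise (chi-square per degree of freedom 12.2 in C4-2 and 24.4 in LNCaP), with a biological coefficient of variation of 6.43%.

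A host is a gene whose deposited span holds the small RNA on the same strand. For SNORA genes of TAF1D, and for intron or exon position, GENCODE v44lift37 was used. Named were the 10 SNORA and 6 SCARNA genes of highest mean CPM, the called genes with the 6 highest and 6 lowest fold changes at a log2 average CPM of at least 0, all tested SCARNA genes, and their hosts; some items that meet this rule are not reported here. No gene had 0 tags in a line and at least 20 in the other. SNORA1, SNORA2A to SNORA2C, SNORA4, SNORA7B, SNORA8, SNORA10, SNORA11, SNORA11D, SNORA18, SNORA23, SNORA36A, SNORA40, SNORA55, SNORA56, SNORA62, SNORA64, SNORA71B to SNORA71D and SNORA80E were named after their values were seen. The genes and lists were chosen with earlier results of these data known.

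Alternatives were DESeq2 1.42.0, its size factors, the library totals behind RPKM, no filter and a filter of 1 CPM in 2 libraries, summed entries, both strands, scaling without small RNAs, a replicate block, and each library left out.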

Additional observations from a re-analysis of the deposited data

Results flagged for a closer look

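Tags on the strand opposite to the RNA, used only in the alternative that sums both strands, exceeded 3 in every library for 5 of the 129 genes. Summed over the 4 libraries there were 603 such tags for SCARNA10, 277 for SCARNA2, 70 for SNORA63, 51 for SNORA57 and 44 for SCARNA12. By library SCARNA10 had 173 and 114 opposite tags in C4-2 and 150 and 166 in LNCaP, beside 36737 and 27679 sense tags in C4-2 and 59751 and 70325 in LNCaP. SCARNA2 had 169 and 63 in C4-2 and 28 and 17 in LNCaP. The opposite tags were thus few beside the sense tags of SCARNA10. Groups of 2 libraries are too small for the check of single outlying libraries.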

How the results depend on the processing

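Scaling by the library totals behind RPKM changed most results. All genes then gave 11572 higher and 1757 lower, the SNORA and SCARNA genes 58 and 22 with a median log2 fold change of 0.52, C/D box snoRNAs 24 and 23, hosts 82 and 1, and the protein lists 53 and 0. Log2 ratios of summed tags turned to 1.40 for SNORA (0.39 with TMM), 0.27 for SCARNA (−0.73) and 0.81 for both (−0.2). Of 128 named genes 34 changed sign, as the uniform shift of 1.0 entails: SNORA17B 0.0317, SNORA67 0.0198, SCARNA12 0.45, SCARNA11 0.57, SCARNA20 0.0432, SNORA2A 0.83, SNORA18 0.56, SNORA71C 0.61, SNORA10 0.68, SNORA23 0.66, SNORA55 0.23, SNORA62 0.53, KANSL2 0.38, TAF1D 0.29, EIF4A2 0.82, SNHG17 0.0948, NCAPD2 0.89, RPL32 0.58, EIF1AX 0.62, RPL10 1.0, SNHG7 0.28, PHB2 0.49, PPP1R8 0.78, TMEM167A 0.35, EEF1E1 0.28, KHDC4 0.30, HAUS6 0.82, CEP295 0.57, NOP10 0.41, NOPCHAP1 0.23, COIL 0.54, EXOSC10 0.83, PUS7L 0.61 and TERC 0.92. A filter of at least 1 CPM in 2 libraries, which removes scarce genes, left 41 of these RNAs and 60 C/D box snoRNAs lower, a median of −0.17, and log2 ratios of −0.82 for SCARNA and −0.28 for both. Under it SNORA71A stood at −0.00495 and SNHG9 at −0.0187. RPL10 stood at 0.0375 without a filter, 0.00847 with summed entries and 0.036 with both strands. Over the settings other than library totals, 1438 of 1519 comparisons of named genes kept direction and side of the threshold, 55 lost a call, 14 gained a call and 12 changed sign.

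Leaving out a library gave 27 to 33 higher and 53 to 59 lower among these RNAs, a median of −0.55 to −0.44, 96 to 106 lower and 3 to 5 higher among C/D box snoRNAs, 5 when either LNCaP replicate was left out. The sign depended on the library left out for SNORA70 (−0.00964 to 0.21), SNORA71B (−0.29 to 0.58), SCARNA3 (−0.12 to 0.47), SNORA2A (−0.50 to 0.12), RPL10 (−0.0621 to 0.0642, with 0.0611 without C4-2 replicate 2) and SNHG9 (−0.0251 to 0.17), none of which was called in the main test; the cause was not tested. DESeq2 gave 30 higher and 51 lower, and 12 calls of scarce or small differences were lost. With the replicate number as a block there were 31 higher and 61 lower, and SNORA36A (adjusted p = 0.0688) and CSKMT (0.0544) lost their calls. Deviations of libraries with the same number correlated at −0.10 over 15975 genes. With 2 libraries per line this is a single pair of contrasts, which cannot show whether the numbers mark a shared batch. Depth limits the 36 genes under 1 CPM, where a few tags can decide a value.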
